A study of Mus musculus with 12 samples.

Results

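A set of 9 genes that place B cells in their tissues were followed through an RNA sequencing study of a mutant MYC protein. They are the chemokine receptors Ccr7, Cxcr4 and Cxcr5, the sphingosine 1-phosphate receptors S1pr1 and S1pr4, the lipid receptors Gpr183 and Gpr55, and the integrin chains Itga4 and Itgb7. The members were taken by symbol, and all 9 were found in both expression tables, among 24015 gene symbols. The set was chosen with earlier results of these data known. In T58A mice, threonine at the named position of MYC is replaced by alanine, and the comparison was with wild-type (WT) littermates. Immature B cells from bone marrow were grown with IL7 and mature splenic B cells with LPS, in both cases for 48 h. The groups were IL7 T58A, IL7 WT, LPS T58A and LPS WT, with 3 libraries in each, so 12 in all, and the titles number the libraries of each culture as pairs. The labels used here give no age or zygosity of the mice and do not name the animal behind each library. The p-values measure the spread between libraries or, where the pairing enters the test, the spread of the difference within pairs. Either spread may be technical in part.

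Naive and precursor B cells read their position from gradients of chemokines and lipids through receptors that couple to inhibitory G proteins. CXCR4 binds CXCL12 and holds precursors in the marrow, CXCR5 binds CXCL13 and leads B cells into follicles, and CCR7 binds CCL19 and CCL21 and draws cells towards the T cell zone. S1PR1 senses sphingosine 1-phosphate and takes cells out of lymphoid organs into blood and lymph, while the integrin formed by the Itga4 and Itgb7 products binds MAdCAM-1 on gut vessels and takes cells into gut tissue. Threonine phosphorylation at the mutated residue marks MYC for degradation, and MYC is a transcription factor that drives growth of activated B cells.

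Values are normalised reads, that is reads assigned to a gene divided by 1 size factor per library, as the authors deposited them. The IL7 libraries held from 8486753 to 10201113 assigned reads and the LPS libraries from 5110746 to 9332410. A gene listed at 0 had 0 reads, which by counting error alone allows an expected count of up to 3 reads. That is between 2.15 and 4.12 normalised reads. The mutation changes a codon, which a level per gene cannot show, so the genotype labels were not checked here. B lineage markers were present in every library, and the precursor marker Vpreb1 lay between 3165 and 4464 normalised reads in IL7 libraries and between 0 and 4.32 in LPS libraries. By Xist and Y-linked transcripts, all T58A libraries and both WT 3 libraries were male, and WT 1 and WT 2 of both cultures were female. T58A and WT thus differed in sex in pairs 1 and 2 of the IL7 cultures and matched in pair 3. In LPS cultures they differed in sex wherever WT 1 or WT 2 is the partner, and matched in pair 3. IL7 WT 2 stood apart: it held 23674 normalised reads of Xist together with 168 of Y-linked transcripts, and 611 of the plasma cell gene Igj, against 89.1 in IL7 WT 1 and 105 in IL7 WT 3. Counts of calls in IL7 cultures are given with and without its pair. Among the LPS columns, 2 carry the same header, T58A2, so their libraries have a genotype but no pair number, and they are called the first and second unnumbered T58A libraries.

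The promoters of 3 of the genes that were lower in IL7 T58A cells are shown because each of them was called lower there and had a sequence entry. RefSeq promoter sequences on GRCm38.p6, 300 bases from 250 before to 50 after the gene start, were matched for 6 of the 9 genes, namely Cxcr4, S1pr4, Itgb7, Gpr55, Itga4 and Gpr183, and Ccr7, Cxcr5 and S1pr1 had no entry. Capitals mark matches to the motifs searched for on both strands: the E-box CACGTG that MYC binds, the forkhead motif GTAAACA, the TATA box TATAAA, the GC box GGGCGG and the ETS motif GGAAGT. The printed strand is that of the gene, which is the minus strand for all 3, and a motif on the other strand appears as its reverse complement.
Cxcr4, chr1:128592250-128592549: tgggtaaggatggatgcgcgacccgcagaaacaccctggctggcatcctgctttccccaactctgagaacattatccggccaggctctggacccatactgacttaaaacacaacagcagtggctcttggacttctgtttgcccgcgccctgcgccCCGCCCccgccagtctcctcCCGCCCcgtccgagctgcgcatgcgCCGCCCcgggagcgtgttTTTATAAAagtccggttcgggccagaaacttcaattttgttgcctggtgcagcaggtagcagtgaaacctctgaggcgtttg
S1pr4, chr10:81500088-81500387: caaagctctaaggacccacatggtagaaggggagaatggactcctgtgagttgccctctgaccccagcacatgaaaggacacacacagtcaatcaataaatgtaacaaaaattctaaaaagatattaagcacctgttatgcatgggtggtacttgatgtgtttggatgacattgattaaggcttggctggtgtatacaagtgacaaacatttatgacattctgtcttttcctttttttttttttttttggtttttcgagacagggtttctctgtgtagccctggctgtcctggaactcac
Itgb7, chr15:102231886-102232185: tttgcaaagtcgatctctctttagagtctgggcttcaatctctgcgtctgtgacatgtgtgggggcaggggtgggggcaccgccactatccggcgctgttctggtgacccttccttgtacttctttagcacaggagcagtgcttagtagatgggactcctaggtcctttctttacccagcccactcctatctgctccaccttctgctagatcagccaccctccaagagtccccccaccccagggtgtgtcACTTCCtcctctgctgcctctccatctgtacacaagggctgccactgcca
The Cxcr4 promoter holds 3 GC boxes, at 95, 75 and 50 bases before the start, and 2 overlapping TATA matches, at 32 and 30 bases before it. The Itgb7 promoter holds 1 ETS match, which begins at the start itself, and the S1pr4 promoter holds no match to any of the motifs. The E-box was in 0 of the 6 promoters, against 7.15% of all 32851 promoters of this length, and the forkhead motif in 0 of 6, against 3.65%. The TATA box was in 1 of 6 (13.6% of all), the GC box in 2 of 6 (35.7%), Cxcr4 and Itga4, and the ETS motif in 3 of 6 (23.8%), Itgb7, Gpr55 and Gpr183. With 6 windows these shares describe the letters and nothing about the factors.

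In IL7 cultures, T58A cells held less RNA of 5 of the 8 genes that passed the filter on low counts: S1pr1, Itgb7, Ccr7, Cxcr4 and S1pr4. S1pr1 and Itgb7 were at about 0.48 of the WT level and Ccr7 at 0.54, with smaller differences for Cxcr4 and S1pr4. Cxcr5 and Itga4, which were among the more abundant of the 9, differed by little. No member was called higher. Fewer cells of a type and less RNA per cell cannot be told apart in such bulk samples. The test was limma on log2(normalised reads + 1) with the pair as a block, at a Benjamini-Hochberg adjusted p under 0.05 over 11604 genes, and changes below are on that scale as T58A minus WT. It called 12.7% of all genes, 6.41% higher and 6.31% lower, as 744 and 732 genes (576 and 867 when scaled by total reads). The median log2 change was -0.66 over the 8 members and -0.01 over all genes.

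**Figure D1:**
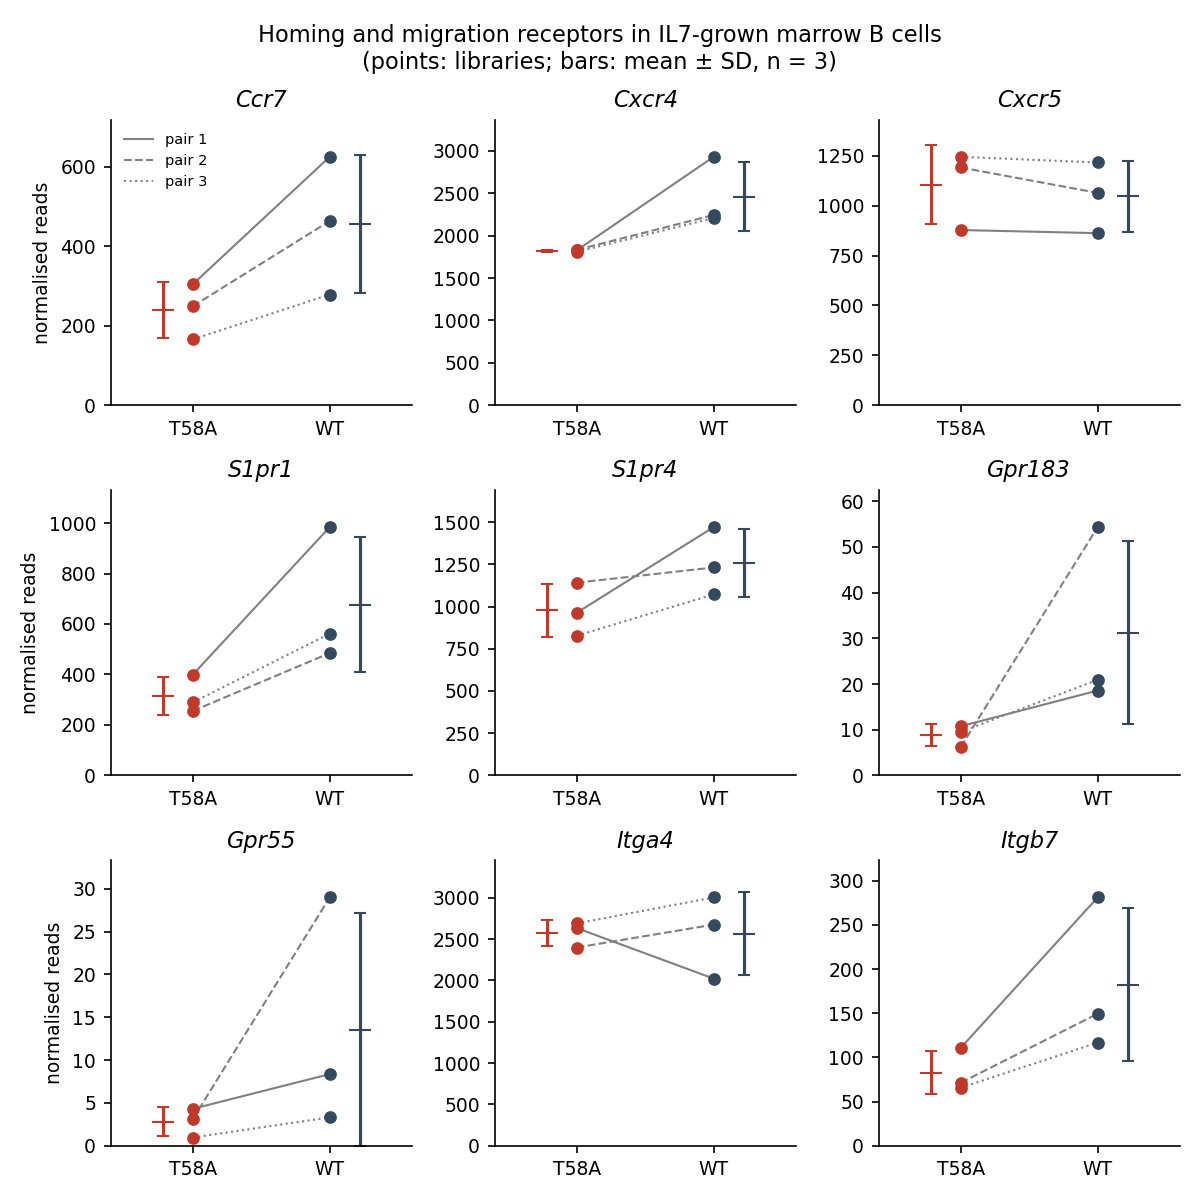
Normalised reads of each gene in the 6 IL7 libraries, T58A on the left and WT on the right, with lines joining the libraries of a pair and bars giving the mean ± SD (n = 3, the bar of Gpr55 in WT is cut at 0). The lines of Ccr7, Cxcr4, S1pr1, S1pr4 and Itgb7 all lead up to WT, while those of Cxcr5 are near level and those of Itga4 cross.

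Among the chemokine receptors, Ccr7 had 304, 249 and 165 normalised reads in T58A cells of pairs 1, 2 and 3, against 626, 464 and 279 in WT cells of the same pairs. The groups overlapped, since T58A of pair 1 lay above WT of pair 3, but T58A was the lower library of every pair. The change was -0.89 ± 0.10 (SE), with a limma adjusted p of 0.00387. Cxcr4 had 1827, 1832 and 1809 normalised reads in T58A cells, against 2931, 2245 and 2209 in WT cells. The T58A libraries were within a narrow range, all below the lowest WT library, and pair 1 carried the widest gap because its WT library was high. The change of Cxcr4 was -0.42 ± 0.09 (limma adjusted p = 0.0202). Cxcr5 had 878, 1192 and 1245 normalised reads in T58A cells and 862, 1064 and 1217 in WT cells. Its libraries followed the pair rather than the genotype, with both of pair 1 low. The change was 0.07, with a 95% interval from -0.09 to 0.24 and a limma adjusted p of 0.518, and the interval does not overlap that of Ccr7 (-1.13 to -0.66).

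S1pr1, the receptor for exit into blood, had 399, 255 and 289 normalised reads in T58A cells, against 984, 485 and 562 in WT cells. No T58A library reached the lowest WT library. The change was -1.06 ± 0.10, with an interval from -1.29 to -0.83 and a limma adjusted p of 0.00234, the smallest of the 8. S1pr4, a receptor for the same lipid that is found mainly on blood cells, had 964, 1142 and 827 normalised reads in T58A cells and 1471, 1232 and 1072 in WT cells. The groups overlapped, and pair 2 differed least, by -0.11 against -0.61 in pair 1 and -0.37 in pair 3. The change was -0.36 ± 0.10 (limma adjusted p = 0.0431), and it was no longer called without pair 1 (adjusted p = 0.0799) or without pair 3 (adjusted p = 0.118).

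Itgb7, the chain that makes the gut-homing integrin with the Itga4 product, had 111, 71.3 and 65.6 normalised reads in T58A cells, against 281, 149 and 117 in WT cells. All T58A libraries lay below all WT libraries, and the change was -1.07 ± 0.16 (limma adjusted p = 0.00671). Its partner Itga4, which also pairs with the Itgb1 product to bind VCAM-1, had 2634, 2399 and 2691 normalised reads in T58A cells and 2022, 2676 and 3005 in WT cells. T58A was higher in pair 1 and lower in pairs 2 and 3, and the change was 0.02 with an interval from -0.22 to 0.26 (limma adjusted p = 0.917). The chains of the same integrin thus gave intervals that did not overlap, although the difference between the genes was not tested.

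The remaining lipid receptors were near the limit of these libraries. Gpr183, also called EBI2, follows oxysterols to the outer follicle, and it had 10.8, 6.20 and 9.51 normalised reads in T58A cells, against 18.6, 54.3 and 20.9 in WT cells. The groups did not overlap, and WT 2, the library that stood apart, was the highest by far. The change was -1.58 ± 0.47 (limma adjusted p = 0.0594), it was -0.90 without pair 2 (adjusted p = 0.261), and Gpr183 was called lower without pair 1 (adjusted p = 0.0143). Gpr55, a receptor for lysophosphatidylinositol, did not pass the filter, with 4.30, 3.10 and 0.951 normalised reads in T58A cells and 8.35, 29.0 and 3.30 in WT cells. Its T58A value in pair 3 was 1 read, and again WT 2 was the highest.

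Over the 9 genes, 4 (Cxcr4, S1pr1, Gpr183 and Itgb7) had every IL7 T58A library below every WT library, and 0 had them above. The background was 10.8% of genes below and 12.9% above. Without pair 2, which holds the library that stood apart, limma called the same 5 genes lower, against 3.71% of all genes, with S1pr1 at -1.13, Itgb7 at -1.08, Ccr7 at -0.89, S1pr4 at -0.49 and Cxcr4 at -0.48. The calls rest on the pairing: without the block, limma called 0 genes and 0 members, although 1960 genes, 6 of the members among them, had an unadjusted p under 0.05. DESeq2 without the block called 2.67% of all genes and 4 members. With the block, leaving out pair 1, 2 or 3 left 12%, 6.68% or 7.21% of all genes called. In pair 3, in which both mice were male, the differences were -0.96 for S1pr1, -0.82 for Itgb7, -0.75 for Ccr7, -0.37 for S1pr4 and -0.29 for Cxcr4. With sex as a further term, which leaves pair 3 to set the genotype effect, limma called 42 genes (0.362%) and 0 members, with adjusted p-values of 0.0773 for S1pr1, 0.176 for Ccr7, 0.312 for Itgb7, 0.495 for S1pr4 and 0.550 for Cxcr4. In the authors' deposited table, the same 5 genes were past an adjusted p of 0.05, with log2 fold changes of -0.92 for S1pr1, -0.76 for Ccr7, -0.75 for Itgb7, -0.39 for Cxcr4 and -0.33 for S1pr4.

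Listed markers of mature B cells, and some of precursors and of the B lineage, were lower along with these receptors in IL7 cultures. Over all genes 6.31% were lower, and 3.71% without pair 2. The marker lists were chosen with earlier results of these data known, so their counts are no test of a list. Of 10 mature B cell markers, all of them detected, 8 were called lower in T58A cells, with a median change of -0.93, H2-Ab1 and H2-Eb1 leading at -1.05 and -1.25 (6 of 10 without pair 2, 2 with sex as a term, and 0 without the block). Their summed level was 8434, 5171 and 3001 normalised reads in T58A cells of pairs 1, 2 and 3, against 15208, 10173 and 4670 in WT cells, which gives differences of -0.85, -0.98 and -0.64 within the pairs. The defining markers Cr2 and Fcer2a were low in every IL7 library (Cr2 from 18.1 to 52.7 normalised reads in T58A cells and from 24.2 to 85.1 in WT cells) and were not among those called. Of 10 precursor markers 3 were called lower, with sums from 24467 to 27169 normalised reads in T58A cells and from 27608 to 32257 in WT cells, and of 6 B lineage markers 3 were lower. Rag1 (-0.78) and Rag2 (-0.84), which cut antigen receptor genes for joining, led the precursor markers, and Ms4a1 (-0.77) and Cd79b (-0.53), both surface proteins of B cells, led the lineage markers. Both counts were 3 without pair 2, and with sex as a term they were 1 of 10 and 0 of 6. The part of these stages in the lower receptor levels was not tested. Myeloid markers had 0 of 12 called, but their sum was 880, 978 and 400 normalised reads in T58A cells and 1368, 666 and 2377 in WT cells, and without pair 2, 6 were called lower. With sex as a term, which rests on pair 3, 5 of 12 were called lower with a median of -3.19, led by S100a9 and Ngp. In that fit S1pr1 stood at -0.96, Itgb7 at -0.82 and Ccr7 at -0.75. None of the receptors and integrins was called, with an SE for S1pr1 of 0.19 against 0.10 without the sex term. That lack of calls therefore cannot bear on the part of myeloid cells. The part of myeloid cells was not tested either. Of the plasmablast markers 1 of 6 was called higher (Sdc1) and 1 lower (Igj), and of the T and NK cell markers 1 of 3 was higher (Thy1) and 1 lower (Il2rb). Dendritic cell markers had 0 of 4 called, erythroid and megakaryocyte markers had 1 of 2 higher (Car2) and 1 lower (Itga2b), and no stromal marker passed the filter. Without pair 2 the calls of Igj, Thy1, Il2rb and Itga2b were lost and those of Sdc1 and Car2 were kept, and with sex as a term none of these 6 was called.

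**Figure D2:**
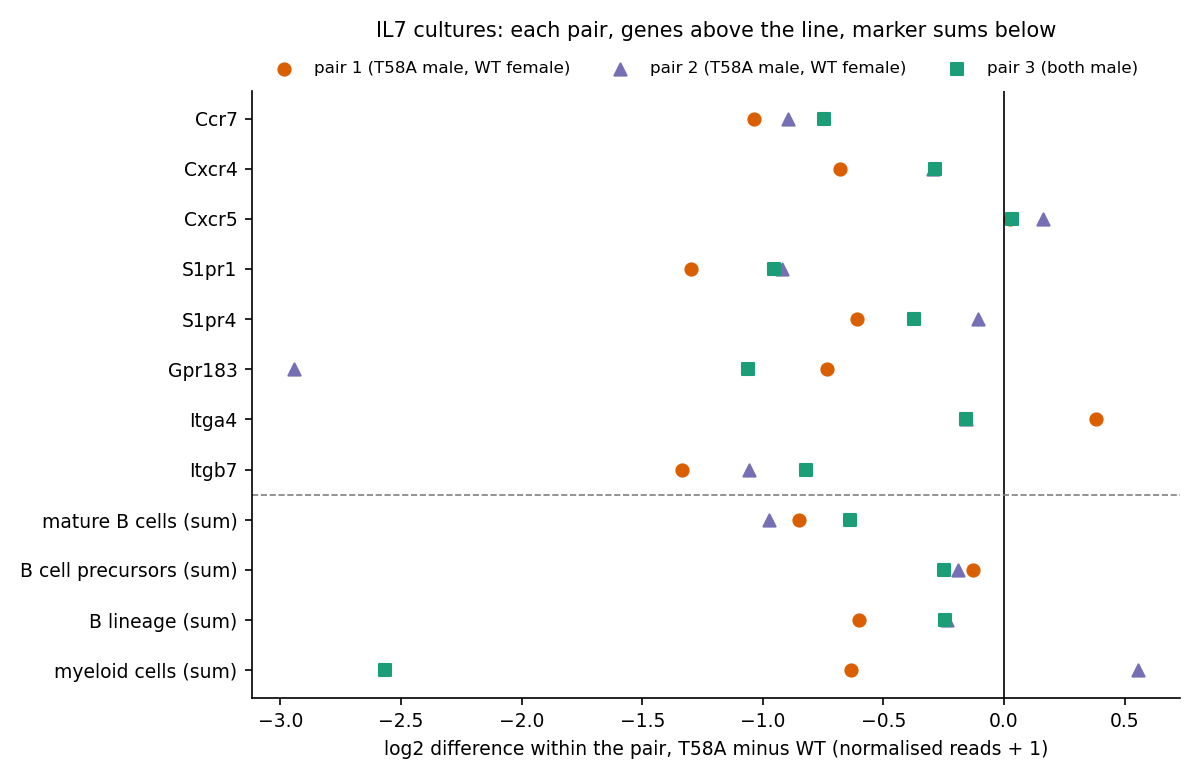
Difference on the log2(normalised reads + 1) scale, T58A minus WT, within each IL7 pair, for the 8 genes that passed the filter (above the dashed line) and for summed marker lists (below it). For S1pr1, Ccr7 and Itgb7 and for the mature B cell sum, all 3 pairs lie between -1.34 and -0.64, while the precursor sum stays between -0.25 and -0.13 and the myeloid sum has both signs.

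The genes that act on these receptors or beside them were read from lists chosen for their role. Of 40 coupling and migration signalling genes tested in IL7 cultures, 9 were lower in T58A cells and 1 was higher, with a median of -0.24. Over all genes, 6.31% were lower and 6.41% higher, against which the counts of all these lists are to be read. The lists were chosen with earlier results of these data known, so a count above that share is no test of a list. Klf2, a transcription factor that in T cells drives S1pr1, had 758, 511 and 399 normalised reads in T58A cells, against 1562, 1003 and 568 in WT cells, a change of -0.84 ± 0.11 (limma adjusted p = 0.00468). Each T58A library was below the WT library of its pair, and the groups overlapped only through WT of pair 3. Cd69, whose product binds S1PR1 and takes it off the cell surface, had 480, 242 and 356 normalised reads in T58A cells and 889, 390 and 657 in WT cells, a change of -0.82 ± 0.09 (limma adjusted p = 0.00286). S1pr1 and its surface antagonist were thus both at a lower RNA level. Foxo1, a factor upstream of homing genes in lymphocytes, changed by -0.47, and Gnai2, an inhibitory G protein subunit that these receptors use, by -0.25 (limma adjusted p = 0.0101 and 0.0436). Elmo1, a partner of the DOCK2 exchange factor, was the gene that was higher, by 0.24 (adjusted p = 0.0475). Foxo1 and Gnai2 were named after their values were seen.

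Of 22 other integrins and adhesion receptors, 7 were lower and 0 higher, with a median of -0.31. Itgal, the alpha chain of the integrin LFA-1, had 321, 263 and 276 normalised reads in T58A cells, against 588, 466 and 436 in WT cells, a change of -0.79 ± 0.09 (limma adjusted p = 0.00398). Its groups did not overlap. Cd53, a tetraspanin of leukocyte membranes, changed by -0.57 with the same adjusted p. Itgb2, the beta chain of LFA-1, changed by -0.42 (limma adjusted p = 0.0260) and was named after its value was seen. Of 24 integrin activation genes 4 were lower and 0 higher, with a median of -0.12, led by Rasgrp3 (-1.16 ± 0.14) and Rasa3 (-0.46 ± 0.06), which act on RAP1 and RAS.

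Of 13 other chemoattractant receptors that passed the filter, 5 were lower and 0 higher, with a median of -0.49. P2ry10, a receptor for lysophospholipids, had 76.4, 65.1 and 59.0 normalised reads in T58A cells and 206, 137 and 93.6 in WT cells, a change of -1.05 ± 0.18 (limma adjusted p = 0.0117), and Gpr18 changed by -0.90 ± 0.18. On the ligand side, 1 of 7 chemokine and adhesion ligands was lower, Ccl22, with 8.61, 6.20 and 3.80 normalised reads in T58A cells and 37.1, 19.0 and 27.5 in WT cells (-2.01 ± 0.39). Of 11 genes for other sphingosine 1-phosphate receptors and for enzymes of that lipid and of oxysterols, 1 was lower, Sgpl1, the lyase that breaks the lipid down (-0.37 ± 0.09, adjusted p = 0.0294). With so few genes called, the ligands and enzymes give no more than a single gene each. Without pair 2, where 3.71% of all genes were lower, the lower counts were 4 of 39 for signalling, 5 of 22 for adhesion, 3 of 24 for integrin activation, 1 of 14 for receptors, 1 of 8 for ligands and 0 of 11 for enzymes. Without the block they were all 0, and with sex as a term they were all 0 too, with Klf2 at -0.51 (limma adjusted p = 0.258), Foxo1 at -0.29 and Cd69 at -0.88 (adjusted p = 0.0759).

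In LPS cultures, 0 of the 9 members and 0 of 11291 genes were called (0.0%), without a block because the headers leave 2 T58A libraries unpaired. At an unadjusted p under 0.05 there were 284 genes, and without a block DESeq2 called 1 gene (0.00886%) and edgeR 0. Ccr7 and Gpr55 showed the largest differences, Ccr7 with the higher mean in T58A cells and Gpr55 with the lower. The median log2 change was -0.06 over the members and 0.01 over all genes. For each of the 9 genes the T58A and WT libraries overlapped, against 3.3% of genes below and 3.1% above without overlap.

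**Figure D3:**
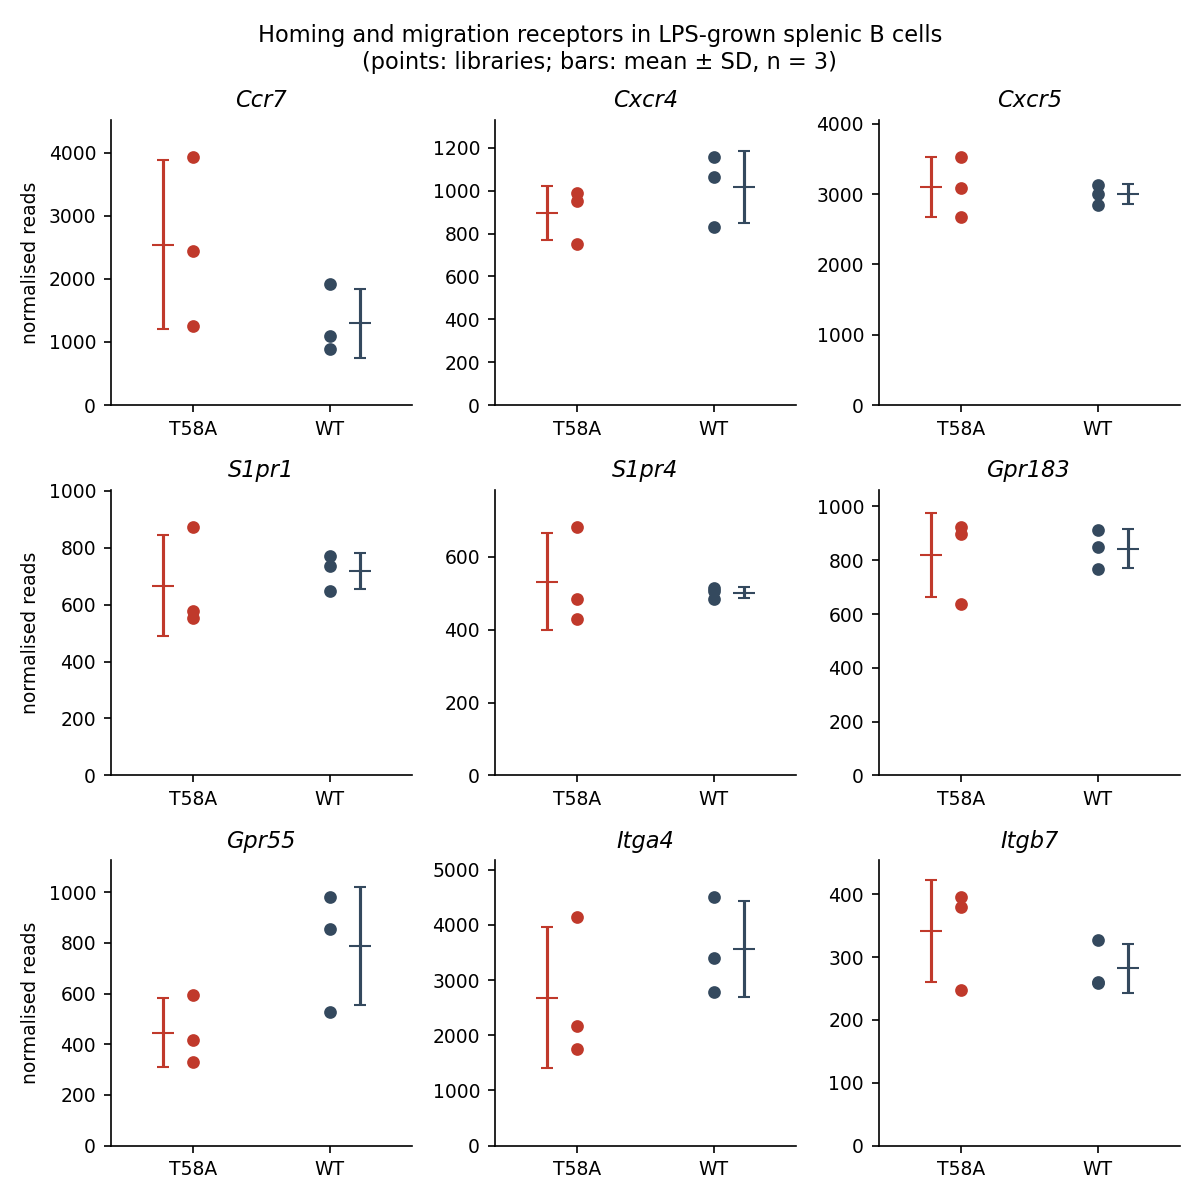
Normalised reads of each gene in the 6 LPS libraries, T58A on the left and WT on the right, with bars giving the mean ± SD (n = 3). The groups overlap for all 9 genes; Ccr7 has 2 T58A libraries above the WT range and Gpr55 has 2 below it.

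Ccr7 had 2441 and 3932 normalised reads in the first and second unnumbered T58A libraries and 1254 in T58A 3, against 1096, 1913 and 882 in WT 1, 2 and 3. T58A 3 fell inside the WT range and the others above it. T58A 3 was above WT 3, and each unnumbered library was above both WT 1 and WT 2. The change was 0.90 ± 0.41, with a 95% interval from -0.02 to 1.82 (limma adjusted p = 1.00). Gpr55 had 415, 329 and 595 normalised reads in the same order of T58A libraries, against 854, 526 and 979 in WT libraries. T58A 3 lay above WT 2, and the change was -0.81 ± 0.28, with an interval from -1.43 to -0.19 (limma adjusted p = 1.00). Itga4 had 1743, 2168 and 4143 normalised reads in T58A cells and 3400, 2787 and 4498 in WT cells, with T58A 3 and WT 3 the highest of their groups. Its change was -0.48 ± 0.31. For Gpr55 and Itga4, T58A 3 was below WT 3, and each unnumbered library was below both WT 1 and WT 2. The direction for Ccr7, Gpr55 and Itga4 was thus the same in every pair, whichever way the unnumbered libraries are paired. So it was for Cxcr4, with 988 and 952 normalised reads in the unnumbered libraries, against 1158 in WT 1 and 1064 in WT 2. The share of all genes with this trait was not counted. Sex matched only in pair 3, where the differences were 0.51 for Ccr7, -0.72 for Gpr55, -0.12 for Itga4 and -0.14 for Cxcr4. With sex as a term, which sets the T58A libraries against WT 3 alone, limma gave 1.38, -1.17, -0.85 and 0.10 in that order.

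The remaining members, Cxcr4 among them, differed by less. Itgb7 averaged 341 ± 80.7 normalised reads in T58A cells and 282 ± 38.7 in WT cells (SD, n = 3 each), a change of 0.25 with an interval from -0.23 to 0.73. S1pr1 averaged 667 ± 178 in T58A cells and 718 ± 63.1 in WT cells, a change of -0.13 with an interval from -0.58 to 0.31. Both genes had been lower in IL7 T58A cells, and both intervals here include 0. Cxcr4 averaged 897 ± 127 normalised reads in T58A cells and 1018 ± 169 in WT cells, a change of -0.18. S1pr4 averaged 532 ± 132 in T58A cells and 502 ± 14.8 in WT cells, a change of 0.06 with a wider spread among T58A libraries. Gpr183 averaged 820 ± 158 in T58A cells and 843 ± 73.9 in WT cells, a change of -0.06, and Cxcr5 averaged 3099 ± 429 in T58A cells and 2998 ± 142 in WT cells, a change of 0.04.

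A pairing of the unnumbered libraries changes what can be called. With the first unnumbered library set with WT 1 and the second with WT 2, limma with pairs blocked gave adjusted p-values of 0.0550 for Ccr7, 0.0504 for Gpr55 and 0.147 for Itga4, and called 0 members and 4 genes (0.0354%). The same design on the recovered reads gave adjusted p-values of 0.0408 for Ccr7 and 0.0326 for Gpr55 in edgeR, which called 0.345% of all genes. DESeq2 called 2.02% of all genes, with Ccr7, Gpr55 and Itga4 among them (adjusted p = 2.64e-08, 8.37e-06 and 0.0316). With the libraries exchanged, limma called 0 genes (0.0%) and DESeq2 1 (0.00886%), none of them a member. The authors' deposited table has Ccr7 at 0.78 (adjusted p = 1.33e-08), Gpr55 at -0.68 (adjusted p = 7.63e-06) and Itga4 at -0.39 (adjusted p = 0.0290), and its p-values came back within 1% for 99.7% of genes from DESeq2 with the first of these pairings and for 17.0% with the other. Of the marker lists 0 genes were called, but the plasmablast sum ran from 28416 to 73247 normalised reads in T58A cells and from 44921 to 109302 in WT cells, and Igj from 9409 to 37355 in T58A cells and from 17254 to 63378 in WT cells. The part of plasmablast content in the Ccr7 and Gpr55 values was not tested. The lists of signalling, adhesion and chemoattractant genes also had 0 called in LPS cultures, with medians between -0.18 and 0.01.

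**Figure D4:**
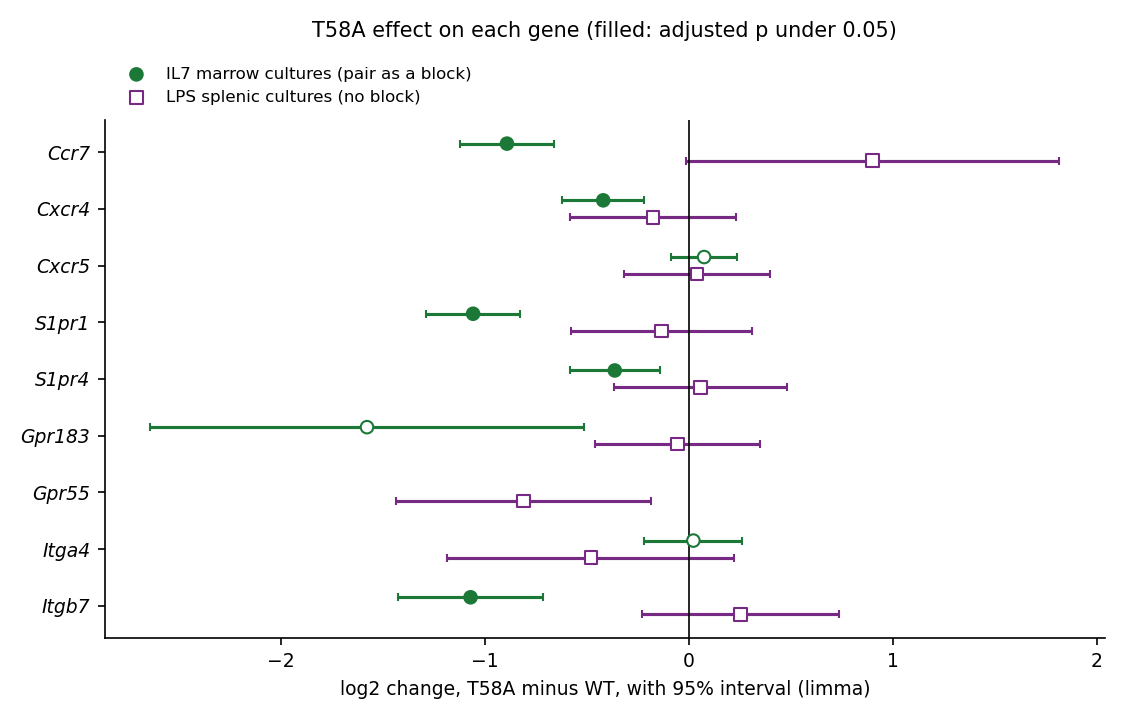
Log2 change, T58A minus WT, with its 95% interval from limma, in IL7 cultures (circles, pair as a block) and LPS cultures (squares, no block), with filled symbols for an adjusted p under 0.05. The filled symbols are the 5 genes lower in IL7 cultures, and Ccr7 lies at -0.89 in IL7 and at 0.90 in LPS cultures. The designs differ, so calls and interval widths are not to be compared between the cultures. With pairs as a block and the first unnumbered library set with WT 1, the LPS interval of Ccr7 was 0.62 to 1.18.

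The difference between the cultures was tested as an interaction, the change in IL7 minus the change in LPS cultures. Without a block, limma called 0 of 12184 genes and 0 members (0.0%), with 551 genes at an unadjusted p under 0.05, and edgeR and DESeq2 called 0 and 5 (0.041%), no member among them. The difference was -1.79 for Ccr7, with an interval from -3.03 to -0.56, and -1.52 for Gpr183, with one from -2.55 to -0.50. It was -1.32 for Itgb7, from -2.24 to -0.40, and -0.92 for S1pr1, from -1.70 to -0.15, all with a limma adjusted p of 0.995. These intervals are for each gene alone and exclude 0, while the adjusted p counts all genes. With pairs as a block and the first unnumbered library set with WT 1, limma called 373 genes (3.06%), 2.42% of all lower and 0.64% higher. Members among the lower ones were Ccr7 (adjusted p = 0.00297), Itgb7 (0.0142) and S1pr1 (0.0234). With the libraries exchanged it called 0, and the adjusted p-values of these 3 were 0.219, 0.289 and 0.307. The headers do not give the pairing, and the first of them is the one under which the authors' deposited LPS p-values came back. The calls on Ccr7, Itgb7 and S1pr1 were made only in the limma fit with that pairing. Every other interaction fit had no block or the exchanged one, so the calls were not checked by another fit with that block.

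Levels of the 9 genes can be compared with each other only per length, here as RPKM, reads divided by the library's assigned total and by the length of the longest coding transcript. In IL7 T58A cells Cxcr4 stood first at 107 ± 1.99 RPKM, followed by S1pr4 at 43.5 ± 7.33, Cxcr5 at 41.1 ± 7.0, Itga4 at 27.9 ± 1.57, Ccr7 at 12.9 ± 3.90, S1pr1 at 10.95 ± 2.71, Itgb7 at 3.27 ± 1.01, Gpr183 at 0.343 ± 0.0924 and Gpr55 at 0.0797 ± 0.0492 (SD, n = 3). Neighbours whose libraries overlapped were S1pr4 with Cxcr5 and Ccr7 with S1pr1. In IL7 WT cells the order was the same: Cxcr4 at 147 ± 24.6, S1pr4 at 56.8 ± 9.25, Cxcr5 at 39.6 ± 6.57, Itga4 at 28.3 ± 5.42, Ccr7 at 24.9 ± 9.54, S1pr1 at 23.9 ± 9.54, Itgb7 at 7.33 ± 3.51, Gpr183 at 1.24 ± 0.798 and Gpr55 at 0.393 ± 0.396. There, Cxcr5, Itga4 and Ccr7 each overlapped with the next in the order, as did Gpr183 with Gpr55, while S1pr1 and Itgb7 were apart. The marrow retention receptor thus led the order in both genotypes, and the receptor for exit stood below it.

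In LPS T58A cells the order was Ccr7 at 190 ± 103 RPKM, Cxcr5 at 161 ± 24.2, Cxcr4 at 73.3 ± 10.8, Gpr183 at 44.3 ± 8.05, Itga4 at 40.4 ± 19.0, S1pr4 at 32.8 ± 7.95, S1pr1 at 32.2 ± 8.32, Itgb7 at 18.8 ± 4.54 and Gpr55 at 17.6 ± 5.18. Ranges were apart only between Cxcr5 and Cxcr4, between Cxcr4 and Gpr183 and between S1pr1 and Itgb7. In LPS WT cells it was Cxcr5 at 154 ± 9.89, Ccr7 at 96.0 ± 42.5, Cxcr4 at 82.1 ± 13.3, Itga4 at 53.0 ± 12.5, Gpr183 at 45.0 ± 3.37, S1pr1 at 34.3 ± 2.23, Gpr55 at 30.7 ± 8.71, S1pr4 at 30.6 ± 0.530 and Itgb7 at 15.3 ± 2.47. Here ranges were apart between Cxcr5 and Ccr7, between Gpr183 and S1pr1 and between S1pr4 and Itgb7. Ccr7 and Cxcr5, the receptors for T cell zone and follicle, headed both orders.

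**Figure D5:**
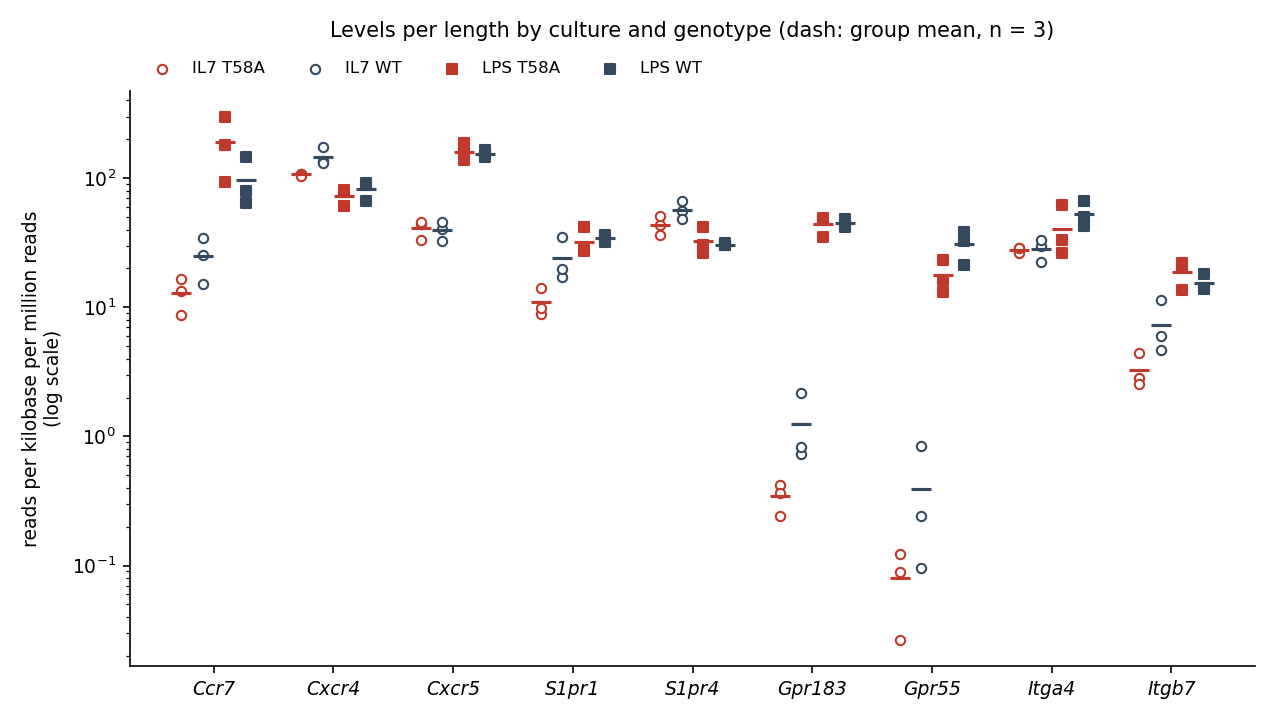
RPKM of each gene, on a log axis, in IL7 T58A, IL7 WT, LPS T58A and LPS WT libraries (points) with the group mean (dash, n = 3). Gpr183 and Gpr55 lie lowest in IL7 cultures, below 3 in every library, and between 13 and 50 in LPS cultures.

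Between the WT cultures the tissue, the stimulus and the table differ together, so levels are given without a test. Scaled to each library's total (RPM), Gpr55 was 78.0 times and Gpr183 36.4 times as high in LPS WT as in IL7 WT cells. Cxcr5 was 3.87 times as high, Ccr7 3.86 times, Itgb7 2.09 times and Itga4 1.87 times. S1pr1 was 1.43 times as high, with overlapping ranges. Cxcr4 and S1pr4 went the other way, at 1.79 and 1.86 times as high in IL7 WT as in LPS WT cells.

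Across the 12 libraries, after the mean of each culture was taken away, the member pairs with the highest Pearson correlations were Itgb7 with S1pr1 (0.84), Gpr55 with Gpr183 (0.80) and Itgb7 with S1pr4 (0.72). The points share libraries, depth and genotype, so these values only describe. Without pair 2 of the IL7 cultures, left out after the values were seen, Gpr55 with Gpr183 came to 0.61 over 10 libraries, and Itgb7 came to 0.81 with S1pr1 and 0.83 with S1pr4. Of 9069 genes with at least 50 normalised reads on average in both cultures, the most alike were Klhl14 (0.963) and Foxp4 (0.961) for Ccr7, Socs5 (0.963) and Plgrkt (0.928) for Cxcr4, and Dpy19l3 (0.948) and Hmgxb4 (0.920) for Cxcr5. For S1pr1 they were Ccm2 (0.962) and Il2rg (0.960), and for S1pr4 Arhgap4 (0.941) and 2610002J02Rik (0.898). Gpr183 was most like Krit1 (0.945) and Gimap3 (0.934), and Gpr55 most like Igj (0.929) and Cmah (0.887). IL7 WT 2 was the highest IL7 library for Gpr183, Gpr55 and Igj, and without its pair Krit1, Gimap3 and Igj came to 0.700, 0.769 and 0.855. Itga4 was most like Cacna1h (0.963) and Spn (0.957), and Itgb7 most like Hmha1 and Irf5 (0.973 each).

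Some genes share exon bases with a neighbour on the other strand on GRCm38. Cxcr5 (chr9:44511787-44561877, minus strand) shares 110 bases with Bcl9l, Gpr55 (chr1:85938318-85961007, minus strand) shares 71 with 4933407L21Rik, and Itga4 (chr2:79255426-79333123, plus strand) shares 1124 with Cerkl. The kit named in the labels does not mark strand, so reads there cannot be told apart. The remaining genes share none: Ccr7 at chr11:99144196-99155077, Cxcr4 at chr1:128588199-128592293, S1pr1 at chr3:115710433-115715072, S1pr4 at chr10:81497747-81500132, Gpr183 at chr14:121952551-121965195 and Itgb7 at chr15:102215995-102231944, all on the minus strand.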

How the data were processed

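The authors deposited 1 table per culture, holding for each gene and library a signal (by its steps, reads over 1 size factor for the library) and the log2 fold change, the p-value and the adjusted p of T58A against WT. Per the submitters' processing notes, bcl2fastq 1.8.4, TopHat2 2.1.0, HTSeq 0.6.1 and DESeq2 (version not stated) were used, with mm10. Per the labels' protocols, libraries were made from total RNA with the TruSeq RNA v2 kit. The annotation and the counting strand are not given in the sources used here. Whole reads were recovered for 100% of the deposited values (within 0.001 of a whole number). The count test on them is an alternative: edgeR called 1424 genes and DESeq2 1053 in IL7 cultures with the pair as a block.

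Genes were filtered per culture with filterByExpr of edgeR 4.0.16 (minimum count 10, minimum total 15) and tested with limma 3.58.1 (trend) in R 4.3.3 on log2(value + 1), with Benjamini-Hochberg adjustment over all genes that passed and a threshold of 0.05. The pair entered as a block in IL7 cultures, where titles and headers number the pairs. Deviations from the group means correlated between same-numbered libraries at 0.41, 0.15 and 0.40, and at -0.36 to -0.05 between others. Deviations within a group sum to 0 for each gene, so the negative values follow in part from the positive ones. Refitted with DESeq2 1.42.0, the authors' IL7 p-values came back within 1% for 94.0% of genes with the block and for 15.8% without. LPS cultures and the interaction had no block, and the block was tried under both assignments of the unnumbered columns. Tables were normalised separately, so levels were compared between cultures only as RPM, scaled to each library's total, and gene lengths and positions came from GENCODE M21 on GRCm38, to which 22709 of 24015 symbols (94.6%) could be matched. The authors may have used another release.

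The members, the gene lists and the fits were chosen with earlier results of these data known. The text names all 9 members, per list the 2 genes with the smallest p among those called in each direction (sex-linked genes aside), per member the 2 most alike genes, and a few more where marked as named after their values were seen. S100a9 and Ngp were also named after their values were seen. A gene of the lists is not reported here. Fits were tested on simulated counts. Plots were made in Python 3.11.15 with matplotlib 3.10.9.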

Additional observations from a re-analysis of the deposited data

Results flagged for a closer look

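A difference of the T58A effect between IL7 and LPS cultures stood out for 3 of the 9 genes in the limma fit with pairs as a block and the first unnumbered LPS library set with WT 1. The change in IL7 minus the change in LPS cultures was -1.79 for Ccr7 (adjusted p = 0.00297), -1.32 for Itgb7 (adjusted p = 0.0142) and -0.92 for S1pr1 (adjusted p = 0.0234). The sizes are the same without a block, at a limma adjusted p of 0.995 for each. In pair 3, which the headers number in both cultures and in which all mice were male, the T58A minus WT differences were -0.75 in IL7 and 0.51 in LPS cultures for Ccr7, -0.82 in IL7 and 0.56 in LPS cultures for Itgb7, and -0.96 in IL7 and 0.24 in LPS cultures for S1pr1. Over all LPS libraries the changes were 0.90 for Ccr7, 0.25 for Itgb7 and -0.13 for S1pr1, so the sign of S1pr1 turns, and both unnumbered T58A libraries lay below every WT library for it. IL7 pair 3 also had the widest gap in summed myeloid markers, with 400 normalised reads in T58A cells and 2377 in WT cells. The part of that gap in these values was not tested.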

How the results depend on the processing

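In IL7 cultures, 5 members were called under each other scaling, pseudocount and filter tried, and in edgeR and DESeq2 with the block. Without the replicate block limma and edgeR called 0 genes and 0 members and DESeq2 310 genes and 4 members, and with the block and sex limma called 42 and 0. Leaving out a pair gave 775 to 1396 genes and 4 to 5 members (775 without pair 2, 840 without pair 3). In LPS cultures, DESeq2 called 1 gene and limma with sex as a term 1. With the block and the first unnumbered column paired with WT 1, limma called 4 genes and 0 members, edgeR 39 and 2, and DESeq2 228 and 3, and with the columns exchanged DESeq2 called 1 gene. Leaving out a library gave 0 to 6 genes (6 without WT 3, 1 without T58A 3) and 0 members. The headers do not give the pairing of the unnumbered columns. The authors' LPS p-values came back within 1% for 99.7% of genes, with all 225 of their calls, under the first pairing, and for 17.0%, with 1 call, under the exchange. The deviations correlated at 0.34 with WT 1 for the first, 0.66 with WT 2 for the second and 0.54 for pair 3, and at -0.50 to -0.05 otherwise. The negative values follow in part from the positive ones here too, since deviations within a group sum to 0. For the interaction, DESeq2 without a block called 5 genes, and limma with the block and the first pairing called 373 genes and 3 members. Leaving out a library, without a block, gave 0 to 3 genes (1 without IL7 T58A 2, 3 without IL7 WT 3) and 0 members. The cause of these shifts was not tested. Depth limits Gpr183 and Gpr55 in IL7 cultures, where Gpr55 lay within a few reads of the limit in all T58A libraries.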
